A study of Mus musculus with 10 samples.

Results

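The 7 genes described here handle lipids in macrophages. They are the nuclear receptor genes Pparg and Nr1h3, the cholesterol efflux genes Abca1, Abcg1 and Apoe, and the fatty acid genes Lpl and Fabp4. They were chosen by name, with the values of the first of the 2 deposited comparisons already known, and all 7 are listed among the 12791 gene names of the authors' deposited table. Their values are therefore given as a description. The p-values beside them are those of the authors' deposited table and lend no independent weight to the choice.

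A macrophage that engulfs dying cells or lipoproteins has to store, burn or export the lipid it takes in. Lipoprotein lipase, made from Lpl, releases fatty acids from triglyceride-rich lipoproteins, and the small carrier protein FABP4 moves fatty acids inside the cell. Oxidised sterols activate the liver X receptor LXRα, encoded by Nr1h3, and fatty acid derivatives activate PPARγ, encoded by Pparg. Both receptors bind DNA together with a retinoid X receptor. LXRα switches on Abca1 and Abcg1, whose proteins pass cholesterol to acceptor particles outside the cell, and Apoe, which encodes a secreted acceptor. Adipocytes and endothelial cells also use Lpl, Fabp4 or Pparg, so none of the 7 marks macrophages alone.

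The series measured mouse bone marrow progenitors of the strain C57BL/6, cells that lack lineage markers and Sca-1 and carry c-Kit, by bulk RNA sequencing. Its 10 libraries comprise 3 KDR-positive and 4 KDR-negative libraries, both from mice carrying the implanted glioma GL261 at week 4 and labelled late stage, and 3 naive libraries, whose mice had no tumor. The KDR protein, a receptor for vascular endothelial growth factor, was read out as GFP knocked into its gene. GFP-positive samples held about 20000 cells each, and the number for the other libraries is not stated in the labels. Whether the naive mice carried the same knock-in, how old the mice were and whether libraries came from separate mice is not stated in the labels, so the spread behind the p-values may be technical. The column names do not say which groups the 2 comparisons set against each other. Each comparison has a numerator group, higher where the fold change is positive, and a denominator group, and the denominator group appears to be the same in both, since the levels derived for it from each comparison match closely. The table holds no value per library, so no standard deviation and no depth can be given.

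The stretch of DNA around the start of Abca1 is shown because Abca1 is a classic LXR target, and LXR is known to bind pairs of AGGTCA units spaced as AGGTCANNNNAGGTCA. The window shown here runs from 250 bases before to 50 bases after the start, and is taken from RefSeq on build GRCm38.p6, not on the mm8 named in the submitters' processing notes. Capitals mark the 16 bases closest to that arrangement, 67 to 52 bases before the start, which read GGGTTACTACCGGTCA on the opposite strand and match 9 of its 12 fixed letters.

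Abca1, chr4:53159846-53160145, minus strand: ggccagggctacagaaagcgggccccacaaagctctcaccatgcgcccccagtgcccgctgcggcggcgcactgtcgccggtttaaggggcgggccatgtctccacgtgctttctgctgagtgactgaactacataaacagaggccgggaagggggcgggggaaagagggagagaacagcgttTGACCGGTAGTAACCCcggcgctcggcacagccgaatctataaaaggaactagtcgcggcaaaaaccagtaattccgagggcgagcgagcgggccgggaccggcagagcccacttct

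A match of 9 or more letters occurs in 21.9% of all 32851 RefSeq promoter windows of this length, and a full match in 0.0152%, both strands searched. Promoter windows were matched for 4 of the 7 genes, 9 windows in all for Apoe, Abca1, Pparg and Nr1h3, some of which overlap. None of the 9 holds a full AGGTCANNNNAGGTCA or AGGTCANAGGTCA, the spacing that PPARγ is known to bind. A lone AGGTCA lies in 2 of them, both of Pparg, against 16.3% of all windows. The core letters GAGGAA, used by the myeloid factor PU.1, lie in 4 of the 9 windows, against 28.3% of all windows. The first of the 3 Apoe windows holds it on the printed strand at its first bases and, as TTCCTC, on the opposite strand 2 to 7 bases after the start, both marked in capitals.

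Apoe, chr7:19699139-19699438, minus strand: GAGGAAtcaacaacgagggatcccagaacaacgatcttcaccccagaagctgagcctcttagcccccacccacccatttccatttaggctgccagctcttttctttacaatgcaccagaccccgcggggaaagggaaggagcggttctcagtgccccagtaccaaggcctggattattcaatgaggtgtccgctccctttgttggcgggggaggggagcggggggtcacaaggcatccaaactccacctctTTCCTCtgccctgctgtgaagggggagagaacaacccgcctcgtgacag

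These letters are a description of the sequence. Which start the libraries used is not resolved by values per gene.

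In the first comparison all 7 genes were higher in the numerator group at an adjusted p under 0.05, against 18.8% of all genes higher and 3.49% lower at that threshold (30.8% had an unadjusted p under 0.05), and since that comparison was known when they were picked the count is read no further. The 2 receptor genes differed strongly. Group levels were derived from the deposited mean and fold change, in CPM as the file header names the unit. The levels of the first numerator group sum to 2127130, more than counts scaled to their own library total can reach, so the scale behind the values is not known and they are read as relative levels. The denominator group has 2 estimates because it was derived once from each comparison. Pparg had a derived level of 67.5 CPM in the first numerator group and 0.635 CPM in the second numerator group, against 1.51 and 1.30 CPM in the denominator group. Its log2 fold change in the first comparison of the authors' deposited table was 5.49, a 44.8-fold higher level (adjusted p = 2.8e-12). Nr1h3 had derived levels of 60.1 CPM in the first and 2.01 CPM in the second numerator group, against 2.76 and 2.60 CPM in the denominator group. For Nr1h3 the authors' deposited table gives a log2 fold change of 4.44 in the first comparison, 21.8-fold (adjusted p = 4.4e-12). For both receptors the first numerator group stood far above the other groups, which lay close to each other at a few CPM or less. In bulk RNA, more cells of a type and more RNA per cell cannot be told apart.

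The cholesterol efflux genes had the smaller fold changes of the 7. Apoe had derived levels of 829.6 CPM in the first and 77.3 CPM in the second numerator group, against 85.7 and 83.3 CPM in the denominator group. Its log2 fold change by the authors' deposited table was 3.28, 9.68-fold (adjusted p = 5.5e-24), and by p-value it ranked 40th of all genes. Apoe RNA was thus well measured in every group, unlike that of the receptors. Abca1 had derived levels of 20.2 CPM in the first and 2.10 CPM in the second numerator group, against 2.70 and 2.57 CPM in the denominator group. The authors' deposited table lists a log2 fold change of 2.90 for Abca1, 7.48-fold (adjusted p = 0.000226). Abcg1 had derived levels of 27.1 CPM in the first and 8.53 CPM in the second numerator group, against 9.79 CPM from the first and 9.77 CPM from the second comparison in the denominator group. With a log2 fold change of 1.47 by the authors' deposited table, 2.76-fold (adjusted p = 0.0267), Abcg1 was the closest of the 7 to the threshold, and at an adjusted p under 0.01 it was no longer called.

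The fatty acid genes differed about as much as the receptors. Fabp4 had derived levels of 146 CPM in the first and 0.642 CPM in the second numerator group, against 3.48 and 3.20 CPM in the denominator group. Its log2 fold change by the authors' deposited table was 5.39 in the first comparison, 42.0-fold (adjusted p = 5.2e-23). Lpl had derived levels of 132 CPM in the first and 3.03 CPM in the second numerator group, against 4.96 and 4.79 CPM in the denominator group. For Lpl the authors' deposited table gives 4.73, 26.6-fold (adjusted p = 3.1e-15). Ranked by fold change among the 12791 genes, from the top, Pparg was 53rd, Fabp4 57th, Lpl 108th, Nr1h3 133rd, Apoe 286th, Abca1 372nd and Abcg1 1578th by the authors' deposited table. The order of fold changes thus put the receptors and the fatty acid genes before the efflux genes, and without an error on each fold change it is not known which neighbours in that order differ.

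**Figure D1:**
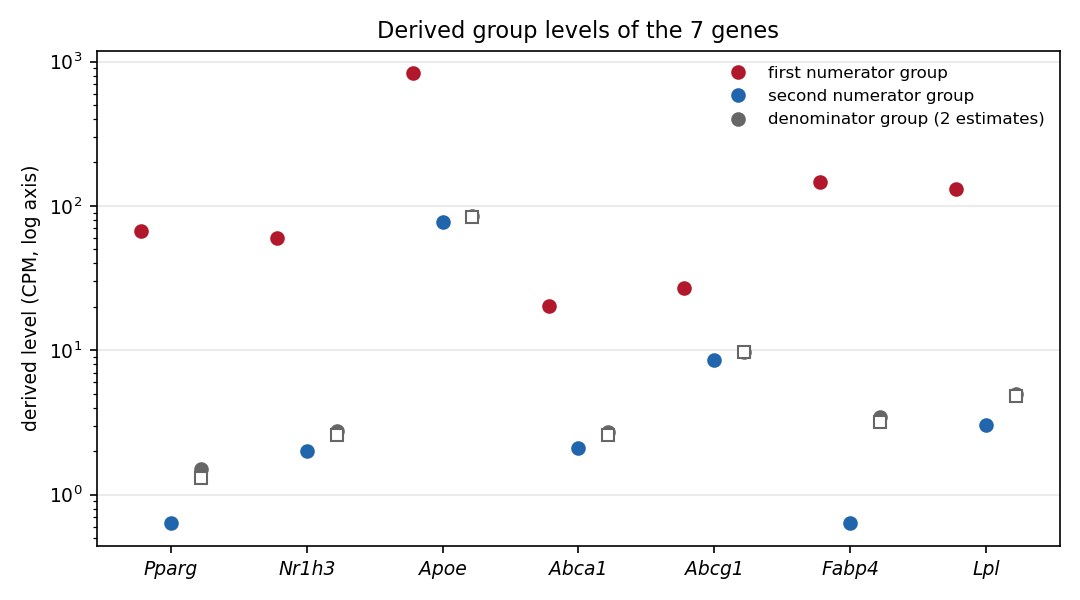
Derived level of each gene in CPM on a log axis, in the first numerator group, the second numerator group and the denominator group, whose 2 estimates are a filled circle (first comparison) and an open square (second comparison). The first numerator group is highest for all 7 genes, from 20.2 CPM for Abca1 to 829.6 CPM for Apoe; there are no error bars because the table has no value per library.

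The second comparison separated few genes. An adjusted p under 0.05 was reached by 14 genes, 0.109% of all, of which 0.0704% were higher and 0.0391% lower, and 43 genes, 0.336%, had an unadjusted p under 0.05. None of the 7 lipid genes was among either, by the authors' deposited p-values, the only test at hand. All 7 had log2 fold changes below 0, from -2.32 for Fabp4 to -0.11 for Apoe with a median of -0.37, where 49.6% of all genes lay below 0 and the median was 0.00125. Genes of low level lay below 0 on the whole, with medians of -0.31 between -2 and 0 log2 CPM, -0.19 between 0 and 2 and -0.05 between 2 and 4, the levels of 6 of the 7. Fabp4, at -2.32 (unadjusted p = 0.062, adjusted p = 1), was the 20th lowest fold change of the authors' deposited table. Among the 1653 genes of its level, 0 to 2 log2 CPM, the 5th to 95th percentile of fold changes ran from -0.85 to 0.34, and Fabp4 lay outside it. Lpl at -0.66, Nr1h3 at -0.37 and Abca1 at -0.29 by the authors' deposited table shared that level and lay inside the range. Pparg stood at -1.04 by the authors' deposited table, inside the range from -1.43 to 0.33 of the 568 genes between -2 and 0 log2 CPM. Abcg1 at -0.20 and Apoe at -0.11 by the authors' deposited table were inside the ranges of their levels as well. Fabp4 and Pparg lay under 1 CPM in the second numerator group, where the prior count of a fit sets much of a fold change, so their sizes are uncertain. Adjusted p-values were 1 for all 7, which does not show that the groups were alike.

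Since both comparisons share the denominator group, their fold changes can be subtracted to set the numerator groups against each other, though without a test. The first numerator group was above the second for 7 of 7 genes, against 45.4% of all genes, and by at least 2 on the log2 scale for 6 of 7, against 7.7% of all genes. The first fold change is part of each difference and was known when the genes were picked, so these counts are read no further. Differences were 7.71 for Fabp4, 6.52 for Pparg, 5.40 for Lpl, 4.82 for Nr1h3, 3.38 for Apoe, 3.19 for Abca1 and 1.66 for Abcg1. The 3 efflux genes again had the smallest differences. The sizes for Fabp4 and Pparg rest on levels near 0 in the second numerator group. All 7 differences also depend on the deposited scale. At equal CPM totals each would be smaller. Apoe then stood at 1.78 in the first and -0.07 in the second comparison, and Abca1 at 1.41 and -0.25, so neither difference would reach 2. Fabp4, Pparg, Lpl and Nr1h3 would still reach it, since each stayed above 2 in the first comparison and below 0 in the second.

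**Figure D2:**
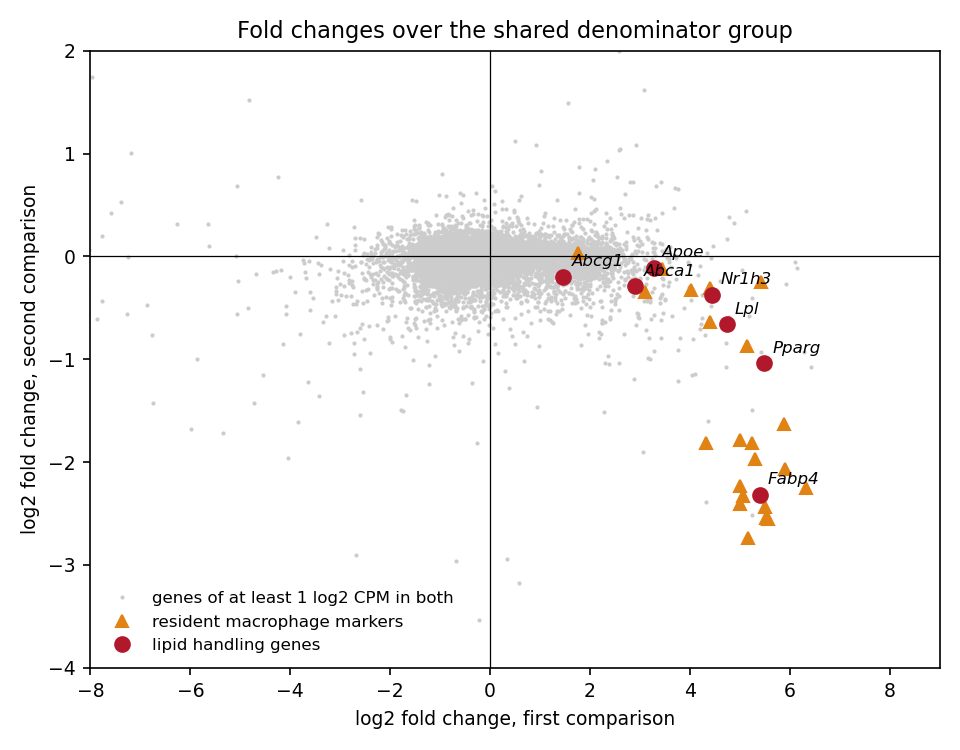
Log2 fold changes of the first comparison (x axis) and the second comparison (y axis), both over the shared denominator group, for the 7 lipid genes (circles), 22 resident macrophage markers (triangles) and the 11252 genes of at least 1 log2 CPM in both comparisons (grey, 56 of them beyond the axes). Fabp4 at 5.39 and -2.32 lies amid the macrophage markers, while Apoe at 3.28 and -0.11 and Abcg1 at 1.47 and -0.20 lie near the horizontal line.

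Close relatives of the 7 genes, which do related work in many cell types, had smaller fold changes in several cases. Ppard, a PPAR expressed in most tissues, stood at 0.20 on the log2 scale in the first comparison of the authors' deposited table (adjusted p = 0.92), and Nr1h2, which encodes the widely expressed LXRβ, had 0.54 (adjusted p = 0.15). Nr1h2 was present at 69.3 CPM in the first numerator group and 47.5 CPM in the second, against 47.7 and 47.6 CPM in the denominator group. The retinoid X receptor gene Rxra, partner of both receptors, was higher at 2.50 by the authors' deposited table (adjusted p = 0.000248), with 27.7 CPM in the first and 4.53 CPM in the second numerator group, against 4.88 and 4.79 CPM in the denominator group. Rxrb, another retinoid X receptor gene, stood at 0.19 by the authors' deposited table (adjusted p = 0.76). Its derived levels were 60.0 CPM in the first and 53.6 CPM in the second numerator group, against 52.5 CPM in the denominator group. No Ppara row was listed. Thus, among these nuclear receptors, Pparg, Nr1h3 and Rxra passed the threshold while Ppard, Nr1h2 and Rxrb did not. The differences between genes were not tested.

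Transporter relatives split. Abca7, a relative of Abca1 linked to phagocytosis, stood at -0.40 by the authors' deposited table (adjusted p = 0.45). Abcg4, the closest relative of Abcg1, was lower at -1.66 (adjusted p = 0.049 by the authors' deposited table), with 4.70 CPM in the first and 16.8 CPM in the second numerator group, against 14.9 CPM in the denominator group by both estimates. Abcg3, a rodent member of the same subfamily, was higher at 4.05 by the authors' deposited table (adjusted p = 1.5e-10). Among fatty acid and lipoprotein relatives, Fabp5, a carrier found in skin and macrophages, was higher at 2.67 by the authors' deposited table (adjusted p = 1.1e-16), and Lipa, the lysosomal acid lipase, at 1.95 (adjusted p = 1.1e-05). Apoc1, a neighbour of Apoe in the same gene cluster, stood at 3.41 by the authors' deposited table (adjusted p = 6.2e-07), close to Apoe itself. Apoc2, the activator of lipoprotein lipase in that cluster, stood at 2.31 by the authors' deposited table and did not pass (adjusted p = 0.2). In the second comparison the log2 fold changes of these relatives ran from -1.15 for Abcg3 to 0.17 for Abcg4 by the authors' deposited table, each with an adjusted p of 1.

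**Figure D3:**
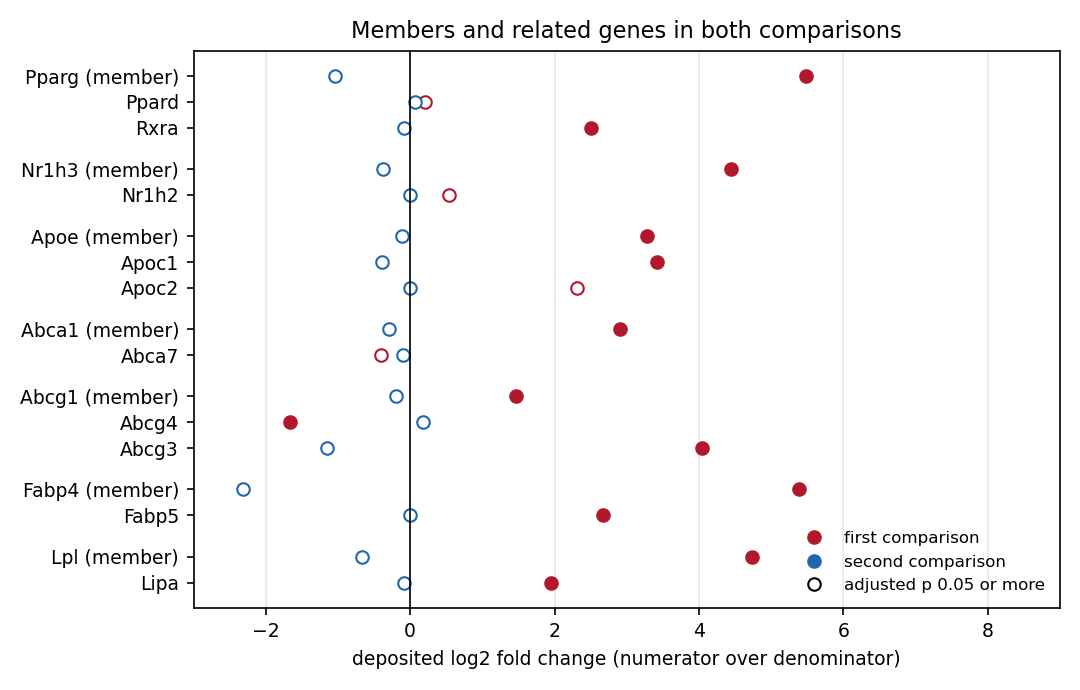
Log2 fold changes of the authors' deposited table for the 7 genes and 10 related genes, in the first comparison (red) and the second (blue); open symbols did not reach an adjusted p under 0.05. Ppard and Nr1h2 lie near 0 in the first comparison while Pparg at 5.49 and Nr1h3 at 4.44 do not, and Abcg4 at -1.66 lies opposite to Abcg1 at 1.47.

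The wider lipid pathways were read through lists of genes, also drawn up with earlier results known, so their counts are descriptions. Over all genes the median log2 fold change of the first comparison was -0.13, and 18.8% of genes were higher and 3.49% lower, so a list with a share of higher genes near 18.8% does not stand apart from the table. Of 20 listed LXR target genes 10 were higher and none lower, with a median of 1.59, and without the 7 genes 5 of 15 were higher with a median of 0.56. Those 5 were Cd5l, a secreted scavenger receptor family protein of macrophages, at 5.17 by the authors' deposited table, Mertk, a receptor for apoptotic cells, at 5.53, the phospholipid transfer protein gene Pltp at 5.85, Apoc1 at 3.41 and Tgm2 at 1.71. Other known LXR targets were not called, among them Srebf1, the transcription factor of fatty acid synthesis, at 0.33 by the authors' deposited table, Lpcat3 at -0.11 and Mylip, which degrades the LDL receptor, at 0.60. Of the 15 PPAR target genes 7 were higher and none lower, with a median of 0.89, and without the 7 genes 4 of 12 were higher with a median of 0.25. These 4 were Fabp5 at 2.67, Ucp2 at 1.84, Cat at 0.99 and the lipid droplet coat gene Plin2 at 0.89 by the authors' deposited table. The fatty acid receptor gene Cd36, a classic PPARγ target named after its value was seen, stood at 1.91 by the authors' deposited table and did not pass (adjusted p = 0.061).

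In the list of cholesterol efflux and lipoprotein transport 8 of 18 genes were higher and none lower, with a median of 1.03, including Npc2, which carries cholesterol out of lysosomes, at 1.56 by the authors' deposited table. Without the 7 genes 5 of 15 were higher, with a median of 0.33. Of 16 lipoprotein and scavenger receptors 3 were higher, the same share as the 18.8% of all genes, and none lower, with a median of 0.58. They were Lrp1, a receptor for ApoE-bearing particles, at 3.57, Cd68 at 3.09 and Stab2, a scavenger receptor, at 5.50 by the authors' deposited table. Among 19 lipases and regulators of lipoprotein lipase 5 were higher, not far from the share of all genes, and none lower, with a median of 0.19. Besides Lpl and Lipa these were Pla2g7, the lipase of oxidised phospholipids, at 5.32, Abhd12 at 2.09 and the lysosomal phospholipase gene Pla2g15 at 2.0 by the authors' deposited table. Angptl4, an inhibitor of lipoprotein lipase, stood at 0.16 (adjusted p = 0.91 by the authors' deposited table), and Lmf1, needed to fold the lipase, at -0.63 (adjusted p = 0.3).

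For lipid storage and droplet coat 2 of 15 genes were higher, Plin2 at 0.89 and Bscl2 at 0.74 by the authors' deposited table, none was lower, and the median was -0.42, a share of higher genes near that of all genes. None of 13 genes of fatty acid synthesis and desaturation was called in either direction by the authors' deposited adjusted p-values, with 4 at an unadjusted p under 0.05 and a median of -0.06. Shares of higher genes not far from 18.8% were also found in the next 4 lists, and differences between lists were not tested. In the list of fatty acid oxidation 6 of 21 were higher and none lower, with a median of 0.35, led by Hadhb at 2.26, Etfb at 1.94, Acaa1a at 2.03 and Acadm at 1.22 by the authors' deposited table. For fatty acid binding, activation and uptake 4 of 16 were higher, Fabp4, Fabp5, Scp2 at 2.29 and Dbi at 1.21 by the authors' deposited table, and 1 was lower, the acyl-CoA synthetase gene Acsl6 at -2.47, with a median of -0.15. Without Fabp4 this was 3 of 15 higher, with a median of -0.36. In the subfamilies A and G of ABC transporters 3 of 11 were higher, Abcg3, Abca1 and Abcg1, and Abcg4 was lower, with a median of -0.29. Without Abca1 and Abcg1 this was 1 of 9 higher, with a median of -0.40. Of 12 nuclear receptors and cofactors 3 were higher, Pparg, Nr1h3 and Rxra, none was lower, and the median was 0.20. Without Pparg and Nr1h3 this was 1 of 10 higher, with a median of 0.07. No gene of these 11 lists was called in the second comparison by the authors' deposited adjusted p-values, and only Cd5l (unadjusted p = 0.0062) had an unadjusted p under 0.05.

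**Figure D4:**
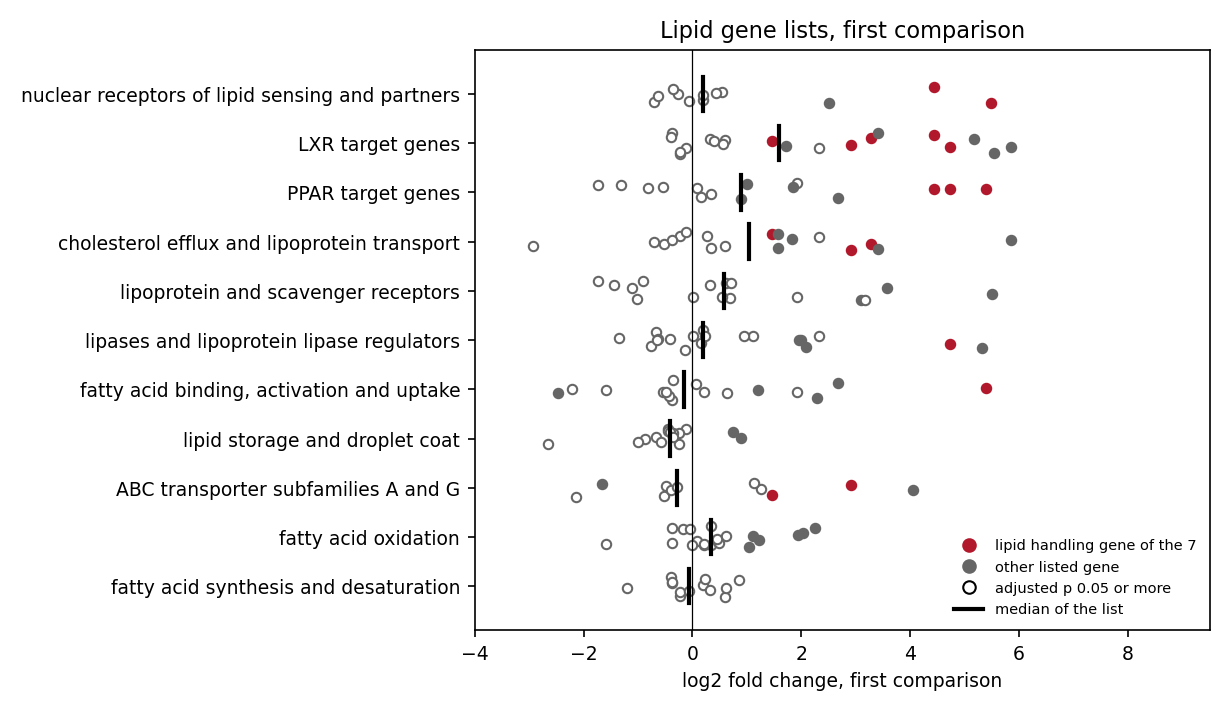
Log2 fold changes of the first comparison for the genes of 11 lipid lists, 1 row per list, with red points for the 7 genes, grey points for the others, open points at an adjusted p of 0.05 or more and a bar at each list's median; points are spread vertically for legibility. Medians, which count the 7 genes where listed, run from -0.42 for lipid storage to 1.59 for LXR targets.

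Markers of resident macrophages moved with the 7 genes. All 22 measured markers were higher in the first numerator group, with a median of 5.10, led by C1qa at 5.0, C1qc at 5.07, C1qb at 5.0 and Mrc1 at 5.25 by the authors' deposited table. Their summed derived level was 6027 CPM in the first and 171 CPM in the second numerator group, against 297 and 289.7 CPM in the denominator group. The same sum over the 7 lipid genes was 1283 CPM in the first and 94.2 CPM in the second numerator group, against 111 and 108 CPM in the denominator group. In the second comparison the markers had a median of -1.82 and C1qa passed the threshold at -2.41 (adjusted p = 0.02 by the authors' deposited table). The markers thus were higher in the same numerator group as the 7 genes, their median in the second comparison lay below the value of every gene of the 7 but Fabp4, and their part in the lipid gene values was not tested. Cd5l and Mertk of the LXR list and Cd68 of the scavenger receptor list are also among the 22 markers. Csf1r is counted with the monocyte markers too, so these lists are not independent of each other.

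Markers of other cell types were listed less completely or moved in both directions. Of the 15 adipocyte markers searched, 5 were listed and none was called in the first comparison, with 1 at an unadjusted p under 0.05, and Adipoq, Plin1, Cidec and Lep were not listed. Their summed level was 75.4 CPM in the first and 80.8 CPM in the second numerator group, against 82.8 and 83.3 CPM in the denominator group. Cebpa alone held 61.0 CPM of it in the first and 57.0 CPM in the second numerator group, against 56.4 and 56.7 CPM in the denominator group. The sum thus mostly reflects Cebpa and says little of the other adipocyte markers. Of 13 measured endothelial markers 3 were higher and 2 lower, with Stab2 at 5.50, Esam at 1.69, Tie1 at 1.17 and Erg at -1.49 by the authors' deposited table, and Cdh5, Cldn5 and Gpihbp1 were not listed. The endothelial sum was 219 CPM in the first and 213 CPM in the second numerator group, against 227 CPM in the denominator group by both estimates. Of the stromal markers only 3 were listed, of which Runx2 at -2.31 and Pdgfrb at -2.83 by the authors' deposited table were lower, and Cxcl12, Lepr and Col1a1 were not listed. Monocyte markers split with 4 of 14 higher, such as Fcgr3 at 2.08, Cd14 at 2.98 and Csf1r at 1.75, and 4 lower, such as Cx3cr1 at -2.59 by the authors' deposited table. Among 9 eosinophil markers 4 were higher and 1 lower, led by Ccr3 at 5.75, Ear2 at 3.71, Ear1 at 1.86 and Prg2 at 1.44 by the authors' deposited table. From a list for astrocytes and microglia, higher genes included Slc1a3 at 4.80, P2ry12 at 3.74 and Trem2 at 1.67 by the authors' deposited table, while Gfap at -1.75 was not called. Among genes that check the sort, those higher were led by Elane at 2.37, Prtn3 at 2.34, Mpo at 2.40 and Ctsg at 2.03 by the authors' deposited table. Kit, the c-Kit gene of the gate, stood at -0.60 (adjusted p = 0.13 by the authors' deposited table), Ly6a, the Sca-1 gene, at 0.43 (adjusted p = 0.4) and Kdr at 1.26 (adjusted p = 0.62). In the second comparison Kdr stood at -1.11. Its derived levels were low, 2.24 CPM in the first and 0.38 CPM in the second numerator group, against 0.94 and 0.82 CPM in the denominator group. At such levels the lack of a call for Kdr says little about the sort.

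Genes whose pair of fold changes lay closest to each member were found by the distance in the plane of the 2 comparisons, over 10073 eligible genes and the 3 groups only. Among eligible genes, nearest to Fabp4 were Fcna, a ficolin, at 5.24 and -2.51 by the authors' deposited table (distance 0.25), and C1qc at 5.07 and -2.33 (distance 0.33). Nearest to Nr1h3 were Emr1, which encodes the macrophage protein F4/80, at 4.41 and -0.31 (distance 0.074) and Gpr137b-ps at 4.43 and -0.48 by the authors' deposited table (distance 0.11). For Lpl these were Ephx1, an epoxide hydrolase, at 4.73 and -0.84 (distance 0.18) and the hemoglobin scavenger receptor gene Cd163 at 4.40 and -0.63 by the authors' deposited table (distance 0.33). Of the eligible genes Pparg lay closest to Bcl2a1b at 5.43 and -0.93 (distance 0.12) and to Ckb at 5.15 and -0.83 by the authors' deposited table (distance 0.40). The efflux genes had other neighbours, H2-Q1 and Mpzl1 for Apoe (distances 0.042 and 0.090), Pea15a and Hist1h2ap for Abca1 (0.064 and 0.071) and Fmnl2 and Col11a2 for Abcg1 (0.017 and 0.048). Bcl2a1b, H2-Q1 and Hist1h2ap have near-identical copies and Gpr137b-ps is a pseudogene, so the share of reads each received is uncertain. With only 3 groups behind the distances, many genes can lie equally close, the more so near the crowded small fold changes of Abcg1.

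The size of the fold changes depends on the deposited scale. Derived CPM summed to 2127130 in the first numerator group and 723664 in the second, against 756537 and 744027 in the denominator group. Equal totals would lower every fold change of the first comparison by 1.49 on the log2 scale. On that scale 6 of the 7 genes stayed above 0, from 1.41 for Abca1 to 3.99 for Pparg, with Fabp4 at 3.90, Lpl at 3.24, Nr1h3 at 2.95 and Apoe at 1.78, while Abcg1 stood at -0.026. Of all 2847 called genes 84.3% were higher on the deposited scale and 49.0% lay above 0 at equal totals. Fold changes also varied with level. Less the running median over genes of like level, the values were 5.60 for Pparg, 4.82 for Fabp4, 4.64 for Nr1h3, 4.31 for Lpl, 3.47 for Abca1, 1.91 for Abcg1 and 1.30 for Apoe, all above 0, and 65.0% of called genes lay above 0. Apoe, whose mean level is 8.79 log2 CPM by the authors' deposited table, thus lost the most by this scale. Of the called higher genes, 9 of 10 LXR targets, 5 of 7 PPAR targets, 7 of 8 efflux genes, 3 of 6 oxidation genes and 0 of 2 storage genes stayed above 0 at equal totals, as did 22 of 22 macrophage markers. Where a list holds some of the 7 genes, they are counted here.

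**Figure D5:**
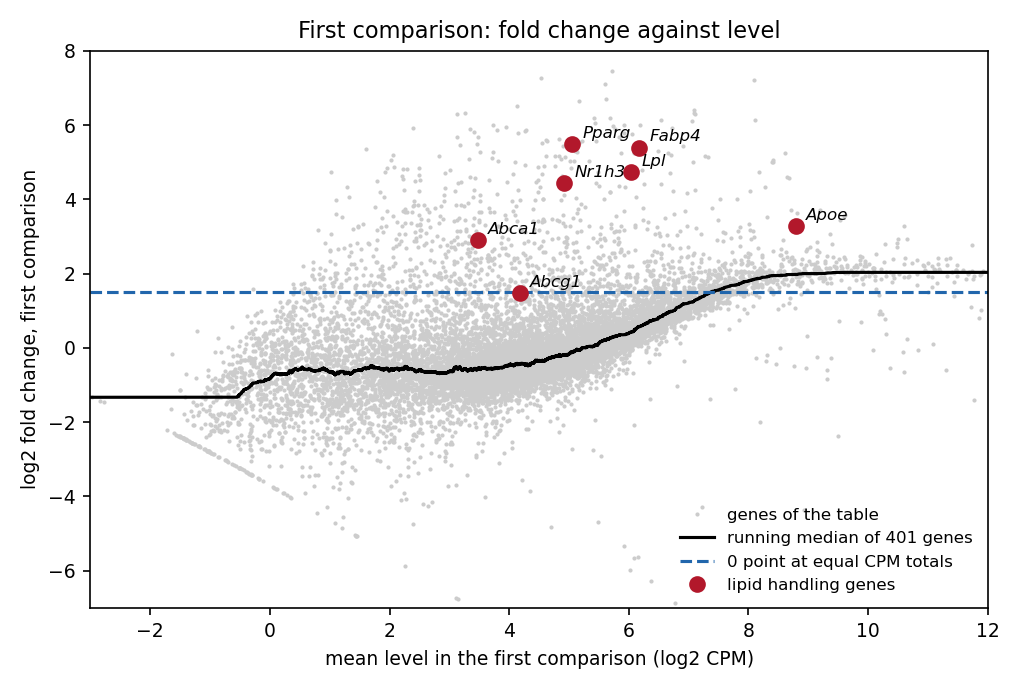
Log2 fold change of the first comparison (y axis) against mean level in log2 CPM (x axis) for the genes of the table (grey, 137 beyond the axes), with the running median over level (black), the 0 point at equal CPM totals (dashed, at 1.49) and the 7 lipid genes (red). Abcg1 at 1.47 lies on the dashed line, and Apoe lies nearest of the 7 to the running median.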

How the data were processed

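Libraries were made from 0.1 ug of total RNA using the TruSeq RNA kit of Illumina, as the labels' protocols state. Bowtie 0.12.2 and build mm8 appear, with no role, per the submitters' processing notes. No program for counting or testing is named in the sources used here. The single table gives log fold changes and mean log CPM values of the authors, read as log2. The p-values and adjusted p-values were deposited by the authors, and the adjusted ones equal a Benjamini-Hochberg adjustment recomputed here. Samples were grouped from their titles, but no deposited value belongs to a single sample, so no model was fitted and depth is unknown.

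Each side's CPM was derived here from mean and fold change. Numerator weights of 0.48 and 0.59 made the denominator levels of the comparisons match best, with a median absolute deviation of 0.0020 log2 over 9044 genes above 3 log2 CPM. At equal weights it was 0.0087, and 0.064 for the next best pairing of sides. The weight fit was tested on simulated data. Calls use an adjusted p under 0.05 over all 12791 genes. The 7 genes and all lists were chosen with earlier results of these data known. Named genes are the 7, their relatives, the 4 called genes of smallest p in each list and genes called in the second comparison. For each of the 7, the 2 nearest genes in the plane of fold changes are also named, among genes of at least 1 log2 CPM in both comparisons. Others named besides, such as Rxrb, Cd36, Acsl6, Srebf1, Lpcat3, Mylip, Angptl4, Lmf1, Tgm2, Ucp2, Cat and Gfap, were chosen after their values were seen. Some marker genes are not reported here. Sequences come from RefSeq on GRCm38.p6. Alternatives were 2 other thresholds, a filter at 1 log2 CPM, 3 scales and 3 sets of weights. Work was done in Python 3.11.15 with numpy 2.4.6 and pandas 2.3.3.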

Additional observations from a re-analysis of the deposited data

How the results depend on the processing

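Of the 7 genes called in the first comparison, 6 were called at an adjusted p under 0.01, with Abcg1 lost, and 7 at 0.1 or when only genes of at least 1 log2 CPM were adjusted. None was called in the second comparison at any of these settings. At equal CPM totals the log2 fold change of Abcg1 turned to -0.026, which follows from the shift of 1.49 itself, and the other 6 kept their direction. All 7 kept it when the median of all genes or the running median over level was removed. Other weights moved the median derived level of the 7 in the first numerator group, 6.08 log2 CPM, to between 5.84 and 6.23. The median difference between the numerator groups, 4.82, was 4.92 and 5.01 with the median of all genes and the running median over level removed. Equal totals were not tried for this difference. The equal totals shifts of 1.49 in the first and -0.04 in the second comparison would lower every such difference. The list of lipid storage and droplet coat had 0 genes higher at an adjusted p under 0.01, against 2 at 0.05, and the counts of the other 10 lists stayed within 1.5 times under the 3 settings tried. No paired analysis was possible because the table holds no value per library, and for the same reason no library could be left out. Depth is unknown and limits the genes under a few CPM most.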
